A study of Homo sapiens with 4 samples.

Results

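Solute carriers (SLC genes) were compared between MCFDCIS cells transfected with Slug siRNA and the same cells transfected with control siRNA. A log2 difference is the mean with Slug siRNA minus the mean with control siRNA on the normalized log2 intensity scale. Members were the genes whose probe symbol had the form SLC, a family number, A and a member number, with a detection p under 0.01 on at least 2 arrays, each read by its brightest probe. The array named 327 such genes, of which 6 were set aside by name, 168 did not reach the detection limit and 153 were kept, among 11200 genes with a probe above background. The list set aside was SLC2A1, SLC2A3, SLC16A3, SLC7A5, SLC7A11, SLC3A2 and SLC30A1, of which the array named 6. Counts and medians of the classes do not cover these genes. The least certain members were SLC18A1, SLC25A45, SLC38A5 and SLC44A5, whose second-lowest detection p was 0.00779, and the nearest gene outside was SLC28A1 at 0.0130.

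Solute carriers are membrane proteins that move amino acids, ions, metals, lipids, sugars, nucleotides and cofactors down a gradient or against it by coupling to another solute. They are grouped into numbered families by sequence, and most families share a class of substrate. In epithelial tumour cells carriers of glutamine and other amino acids feed growth, and the SLC25 family links the cytosol to mitochondrial metabolism. The zinc carrier SLC39A6 is known from zebrafish to act with Snail, a close relative of Slug, during cell migration in the embryo.

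MCFDCIS is a human breast cancer line, called basal-subtype by the series. The data are 4 Illumina bead arrays of 1 chip, 2 from cells given control siRNA and 2 from cells given siRNA against Slug, the zinc finger repressor encoded by SNAI2, with total RNA taken 72 hours after transfection. The labels call the arrays of a group biological replicates without tying them to separate days, so p-values cover only the spread among these 4 arrays, and the number of arrays limits the precision. All 4 arrays come from this line, and the siRNA sequences were not used here.

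SNAI2 itself read 8.95 and 9.01 on the log2 intensity scale in the control arrays and 8.57 and 8.51 in the Slug siRNA arrays. The log2 difference of -0.44 (SE 0.16) did not pass the threshold in limma (adjusted p = 0.315). Per array, 39.8% to 40.8% of probes were detected at p under 0.05, and arrays correlated at 0.981 to 0.991 across probes. Of 10 epithelial markers looked up, 8 had a named probe, and these were above background on all 4 arrays. Of 9 markers of fibroblasts, endothelium and leukocytes, DCN, COL3A1, VWF, CDH5, PTPRC and CD3E were not above background, COL1A1 was detected on 2 arrays, and PECAM1 and CD68 were detected on 4. Over all genes, groups did not overlap in 45.1%. They did not overlap for PECAM1, with a log2 difference of -0.78 (adjusted p = 0.280). Nor did they for the epithelial genes KRT8 (0.99, adjusted p = 0.0919), CDH1 (0.52), KRT18 (0.43), EPCAM (0.38), KRT5 (0.14) and CDH3 (-0.16). The epithelial genes KRT14 (-0.30) and ITGB4 (-0.12) had overlapping groups. The part of these markers in the results was not tested. Fewer cells of a type and less RNA per cell cannot be told apart in such bulk samples.

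The promoters of 3 members are shown because 1 is the only member past the threshold and the others had the largest positive differences among members whose groups did not overlap. They are the 250 bases before the RefSeq gene start in GRCh38.p14, 5′ to 3′ on the gene's strand, with capitals for CAGGTG or CACCTG, the E-box letters that Snail family proteins are known to bind.
SLC49A4, chr3:122794819-122795068, plus strand: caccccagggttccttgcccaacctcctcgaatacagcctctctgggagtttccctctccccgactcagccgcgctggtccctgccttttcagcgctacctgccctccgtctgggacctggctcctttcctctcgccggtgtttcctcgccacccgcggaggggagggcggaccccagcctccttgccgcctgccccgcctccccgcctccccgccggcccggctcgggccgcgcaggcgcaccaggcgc
SLC27A2, chr15:50181946-50182195, plus strand: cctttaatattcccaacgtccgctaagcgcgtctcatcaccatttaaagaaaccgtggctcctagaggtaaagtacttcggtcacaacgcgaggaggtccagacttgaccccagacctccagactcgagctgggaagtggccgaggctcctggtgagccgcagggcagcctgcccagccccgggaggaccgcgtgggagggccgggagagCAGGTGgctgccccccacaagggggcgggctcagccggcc
SLC25A42, chr19:19063744-19063993, plus strand: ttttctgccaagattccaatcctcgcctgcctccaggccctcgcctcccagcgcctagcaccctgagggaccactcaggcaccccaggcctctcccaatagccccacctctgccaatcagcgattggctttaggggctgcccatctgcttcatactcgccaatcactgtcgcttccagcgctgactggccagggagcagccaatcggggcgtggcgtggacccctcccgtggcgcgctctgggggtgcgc
The SLC27A2 stretch holds CAGGTG, starting 40 bases before the gene start. The stretches of SLC49A4 and SLC25A42 hold neither form.

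After Slug siRNA, 1 of 153 solute carriers fell and none rose at a limma adjusted p under 0.05. Over all genes 0.116% passed, 0.0804% as lower and 0.0357% as higher. The differences ran both ways. The log2 difference was above 0 for 82 members and below 0 for 71, where 51.6% of all genes were above 0 and 48.4% below. The median was 0.05 over the members and 0.01 over all genes. At an unadjusted limma p under 0.05, 16 members were higher and 16 lower, which is 10.5% each, where all genes gave 6.18% higher and 6.88% lower. In 43 members both Slug siRNA arrays lay above both control arrays and in 39 both lay below, together 53.6% of the members. Over all genes this was 45.1%, with 23.7% higher and 21.5% lower. Most differences were small, and 91 of 153 members lay within 0.25 of 0 on the log2 scale. With the sign left aside, the median log2 difference was 0.216 over the members and 0.174 over all genes. Genes measured on shared arrays are not independent, so these shares describe the arrays and are no test of the carriers as a group.

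**Figure D1:**
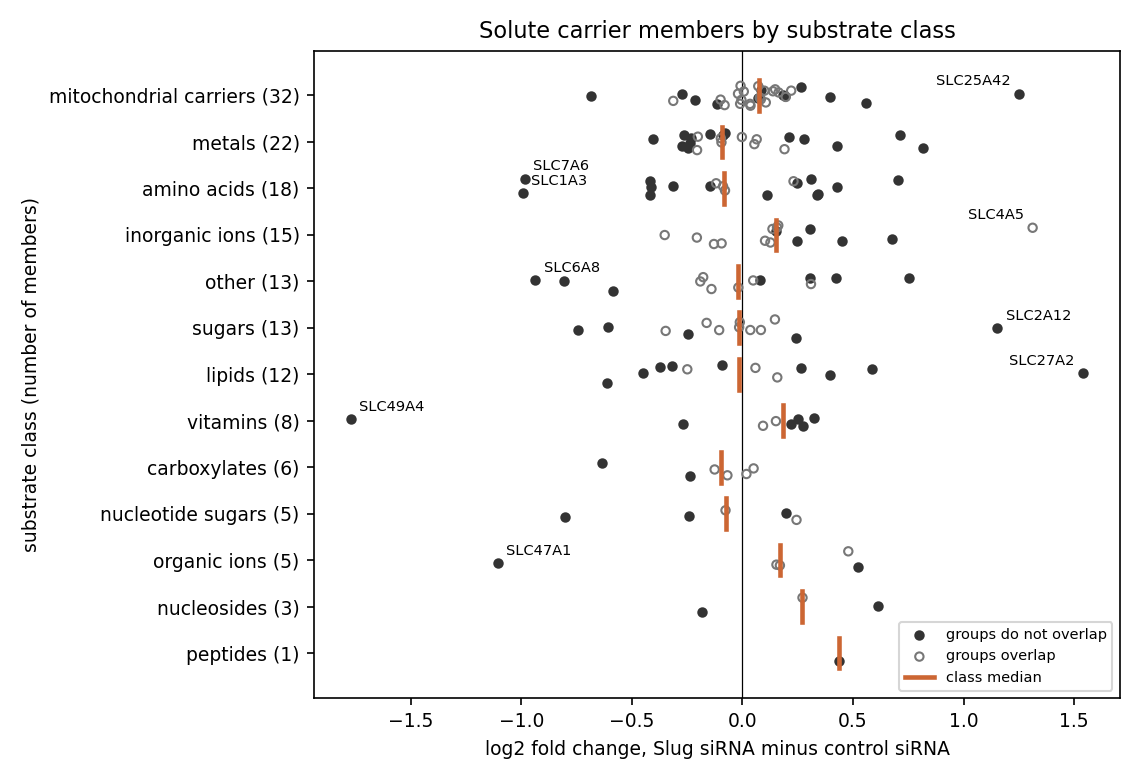
Log2 difference of each of the 153 members (x axis, labelled as log2 fold change) by substrate class (y axis), with filled points where the groups do not overlap and a bar at the class median. SLC49A4 lies apart at -1.77, and class medians lie between -0.10 and 0.43.

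SLC49A4, a lysosomal membrane transporter reported to carry the vitamin B6 form pyridoxine, was the member past the threshold. It read 9.30 and 9.11 on the log2 intensity scale with control siRNA and 7.47 and 7.39 with Slug siRNA. Both Slug siRNA arrays lay far below both control arrays, and the arrays of a group differed little. The fall was 3.41-fold (log2 difference -1.77, SE 0.17, limma adjusted p = 0.0329), and a single probe read the gene. The size held between -1.86 and -1.35 over all alternatives. It no longer passed without control siRNA replicate 1, at an adjusted p of 0.0840, or without Slug siRNA replicate 1 (0.0565), nor when dim probes were not filtered (0.126) or the authors' normalized values were used (0.0585).

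A further 5 members had an adjusted p under 0.1 and are given by value. The share of all genes under 0.1 was not counted, so this number says nothing about the carriers as a group. SLC47A1, a proton-coupled exporter of organic cations, read 6.70 and 6.91 with control and 5.77 and 5.62 with Slug siRNA, a log2 difference of -1.11 (SE 0.17, adjusted p = 0.0655). The groups lay clearly apart. SLC25A42, the mitochondrial carrier that brings coenzyme A into the matrix, read 5.96 and 5.56 with control and 7.11 and 6.92 with Slug siRNA, a log2 difference of 1.25 (SE 0.19, adjusted p = 0.0655). SLC27A2, a fatty acid transport protein that also activates very long chain fatty acids to their CoA esters, read 7.87 and 8.63 with control and 9.57 and 10.01 with Slug siRNA. Its control arrays differed more than its Slug siRNA arrays, and still both lay below them, with a log2 difference of 1.54 (SE 0.28, adjusted p = 0.0879). The remaining pair, SLC1A3 and SLC7A6, are amino acid carriers described next. With no background correction these genes had log2 differences of 0.58 for SLC25A42, -0.49 for SLC47A1, -0.54 for SLC1A3 and -0.30 for SLC7A6, each over 1.5 times closer to 0, and 1.29 for SLC27A2. Of the 32 members at an unadjusted p under 0.05, 19 lay over 1.5 times closer to 0 under that setting, among them SLC2A12 (0.45), SLC46A3 (0.27), SLC29A3 (0.25), SLC22A4 (0.21), SLC4A11 (0.37), SLC31A2 (0.47) and SLC38A9 (0.37). With the replicate number as a block all 5 had an adjusted p under 0.05 (0.0144 to 0.0291). That fit left 1 residual degree of freedom, and the labels tie no replicate number to a shared day. It passed 3.18% of all genes, against 0.116% with the main settings. An offset of 50 passed 1.94% of all genes. There SLC25A42, SLC27A2, SLC1A3 and SLC47A1 had an adjusted p under 0.05 (0.0198 to 0.0273), and SLC7A6 stood at 0.112.

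**Figure D2:**
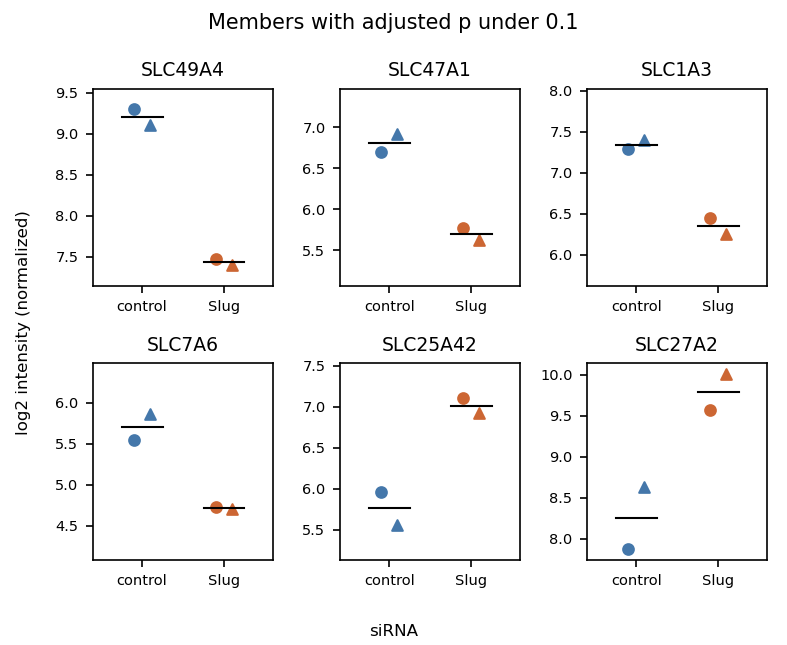
Normalized log2 intensity (y axis) of the 6 members with an adjusted p under 0.1, by siRNA (x axis), with circles for replicate 1, triangles for replicate 2 and a line at the group mean. In each of the 6 panels both arrays of a group lie on the same side of both arrays of the other, and each panel has its own range.

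Of 18 amino acid carriers, 8 had a log2 difference above 0 and 10 below, with a median of -0.08. In 14 of them (77.8%, against 45.1% of all genes) the groups did not overlap, 7 in each direction. None passed the adjusted threshold. All 3 measured SLC1 members, which take up glutamate or neutral amino acids with sodium, read lower in both Slug siRNA arrays. Over all genes 21.5% lay below control in this way. SLC1A3, a glutamate and aspartate carrier, read 7.29 and 7.39 with control and 6.45 and 6.25 with Slug siRNA (log2 difference -0.99, SE 0.17, adjusted p = 0.0758). SLC1A1, another glutamate carrier, stood at -0.42 (adjusted p = 0.362). SLC1A5, the main glutamine exchanger of many tumour cells, read 9.17 and 9.04 with control and 8.63 and 8.76 with Slug siRNA, a log2 difference of -0.41 (adjusted p = 0.360). These 3 genes thus shared a direction, with SLC1A3 the farthest from 0.

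The SLC38 family, sodium-coupled neutral amino acid carriers, lay mostly the other way by its brightest probes. Of its 6 members, 5 read higher in both Slug siRNA arrays than in either control array, and SLC38A5 overlapped at -0.12. Over all genes 23.7% lay above control in this way. SLC38A9, the lysosomal arginine sensor that signals to mTORC1, read 6.26 and 6.51 with control and 6.90 and 7.27 with Slug siRNA (log2 difference 0.70, SE 0.20, adjusted p = 0.219). The plasma membrane glutamine carriers SLC38A1 and SLC38A2 stood at 0.34 and 0.25 (adjusted p = 0.508 and 0.638), or 0.17 and 0.09 without control siRNA replicate 1, and SLC38A6 at 0.43 (adjusted p = 0.402). SLC38A10 stood at 0.11, but its second probe had a log2 difference of -0.45. That probe was above background on both control arrays and on neither Slug siRNA array. The second SLC38A1 probe, above background in both groups, stood at 0.02. The SLC1 and SLC38 families were singled out after their values were seen, and the difference between them was not tested.

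**Figure D3:**
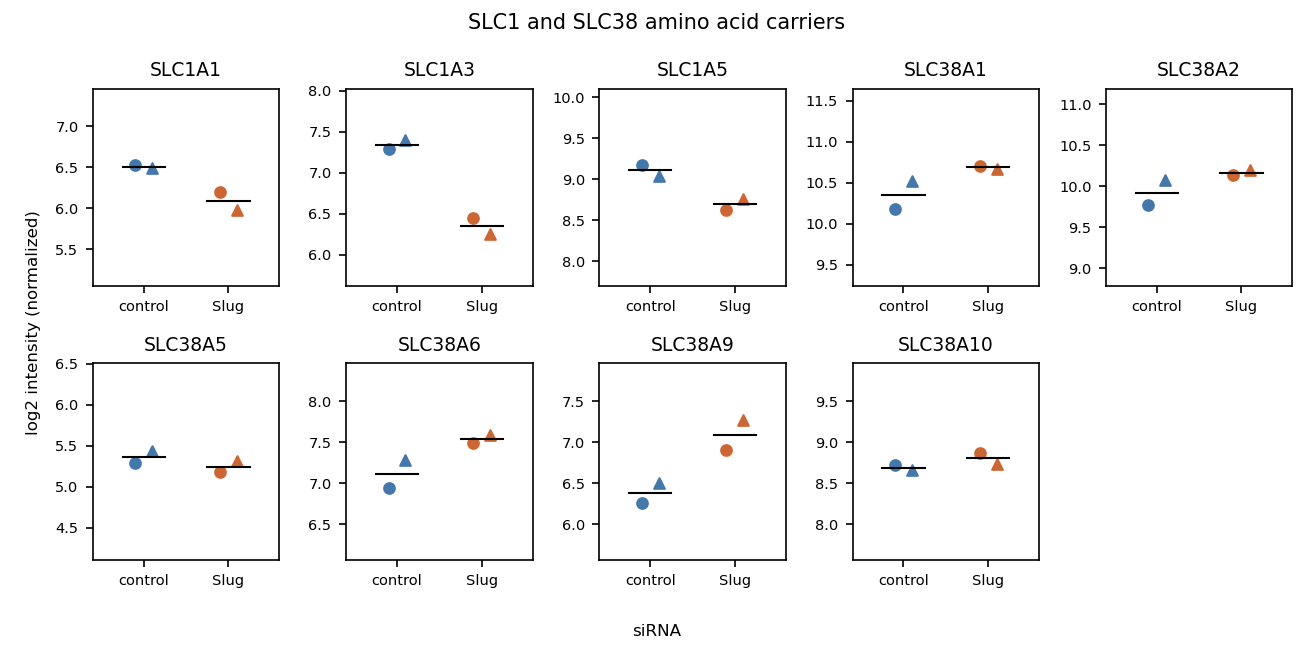
Normalized log2 intensity (y axis) of the SLC1 and SLC38 members by siRNA (x axis), with circles for replicate 1, triangles for replicate 2 and a line at the group mean, and a separate range in each panel. The 3 SLC1 genes read lower with Slug siRNA and 5 of the 6 SLC38 genes higher, with SLC38A5 overlapping.

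Among the other amino acid carriers, SLC7A6 had the largest difference. It is a light chain that pairs with a glycoprotein heavy chain to exchange cationic for neutral amino acids. SLC7A6 read 5.54 and 5.86 with control siRNA and 4.73 and 4.71 with Slug siRNA, where it was not above background on either array. Against the lowest signal of detected probes its mean was at least 1.70-fold lower with Slug siRNA (measured means 5.70 and 4.72, adjusted p = 0.0865). Its second probe was not above background with Slug siRNA either. SLC43A2, an exporter of branched-chain and aromatic amino acids, stood at 0.34 (adjusted p = 0.597), and at 0.04 without Slug siRNA replicate 1. SLC6A14, a broad sodium- and chloride-coupled carrier of epithelia, stood at 0.23, and its groups overlapped (6.90 and 6.43 against 7.11 and 6.68).

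Carriers of inorganic ions had mostly positive values. Of 15 members 11 were above 0, with a median of 0.15. In 5 (33.3%) both Slug siRNA arrays lay above both control arrays, and none lay wholly below. Over all genes 23.7% lay above and 21.5% below, together 45.1%. None passed the adjusted threshold. SLC4A11, a proton and ammonia transporter known from the corneal endothelium, read 6.55 and 6.55 with control and 7.30 and 7.15 with Slug siRNA, a log2 difference of 0.68 (SE 0.16, adjusted p = 0.162). Its control arrays were alike, and both Slug siRNA arrays stood above them. SLC24A1, a sodium, calcium and potassium exchanger, stood at 0.45 (adjusted p = 0.457) and SLC12A2, the sodium, potassium and chloride cotransporter of secretory epithelia, at 0.30 (adjusted p = 0.497). The second SLC12A2 probe had a log2 difference of -0.24. The bicarbonate carrier SLC4A7 (0.16) and the phosphate carrier SLC20A1 (-0.09) had overlapping groups.

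The largest value of the ion carriers, 1.31 for the bicarbonate cotransporter SLC4A5 (adjusted p = 0.580), came from a single array. Its deposited intensity was 80.4 in control siRNA replicate 1, the lowest of any probe on any array, and 240.3, 220.6 and 241.5 on the other arrays. That low value was a mean over 80 beads, where the other arrays had 17, 35 and 22. Without control siRNA replicate 1 the log2 difference was -0.21. SLC4A5 was named after its values were seen.

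Of 22 metal carriers 14 were below 0, with a median log2 difference of -0.09. Their groups did not overlap in 5 members that were higher and 9 that were lower (63.6%, against 45.1% of all genes). No metal carrier passed the adjusted threshold. The values farthest from 0 were nevertheless positive. SLC31A2, a copper transporter of intracellular membranes, read 6.45 and 6.70 with control and 7.19 and 7.59 with Slug siRNA (log2 difference 0.82, SE 0.20, adjusted p = 0.170). The plasma membrane copper importer SLC31A1 stood at 0.21 (adjusted p = 0.651). SLC39A8, an importer of zinc and manganese, read 8.43 and 8.61 with control and 9.06 and 9.40 with Slug siRNA, a log2 difference of 0.71 (adjusted p = 0.195), and its second probe at 0.64. SLC30A7, which loads zinc into the Golgi, stood at 0.43 (adjusted p = 0.368), and the iron importer SLC11A2 at 0.28 (adjusted p = 0.578).

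The negative values among metal carriers were smaller. The zinc importers of the SLC39 family were below 0 in 8 of 10 members. Of the 10, 5 lay below control on both arrays, where 21.5% of all genes did. SLC39A10 read 7.28 and 7.26 with control and 6.67 and 7.06 with Slug siRNA, a log2 difference of -0.41 (adjusted p = 0.436). SLC39A14 stood at -0.26 (adjusted p = 0.591). SLC39A6, the Snail-linked zinc carrier, read 8.80 and 8.61 with control and 8.54 and 8.58 with Slug siRNA, a log2 difference of -0.15 (adjusted p = 0.794). Its groups did not overlap, by less than the gap between its control arrays. SLC48A1, a haem transporter, stood at -0.27, but its second probe had a log2 difference of 0.58.

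Lipid carriers were spread most evenly about 0, with 6 of 12 members on each side and a median of -0.02. Groups did not overlap in 4 members that were higher and 5 that were lower (75%, against 45.1% of all genes). No lipid carrier passed the adjusted threshold. In the SLC27 family of fatty acid transport proteins SLC27A2 stood alone above 0, at 1.54, and the other 4 were below. SLC27A1, which takes up long chain fatty acids, read 7.92 and 7.53 with control and 7.45 and 6.78 with Slug siRNA, a log2 difference of -0.61 (adjusted p = 0.394). It was -0.28 without Slug siRNA replicate 2, and -0.96 when replicate 1 of that group was left out. SLC27A5, which activates bile acids in liver, stood at -0.45 (adjusted p = 0.343). Among the choline transporter-like SLC44 genes, SLC44A3 stood at 0.58 (adjusted p = 0.220) and SLC44A2, a choline carrier, at -0.37 (adjusted p = 0.397). SLC10A7, a relative of the bile acid carriers, stood at 0.40 (adjusted p = 0.385).

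**Figure D4:**
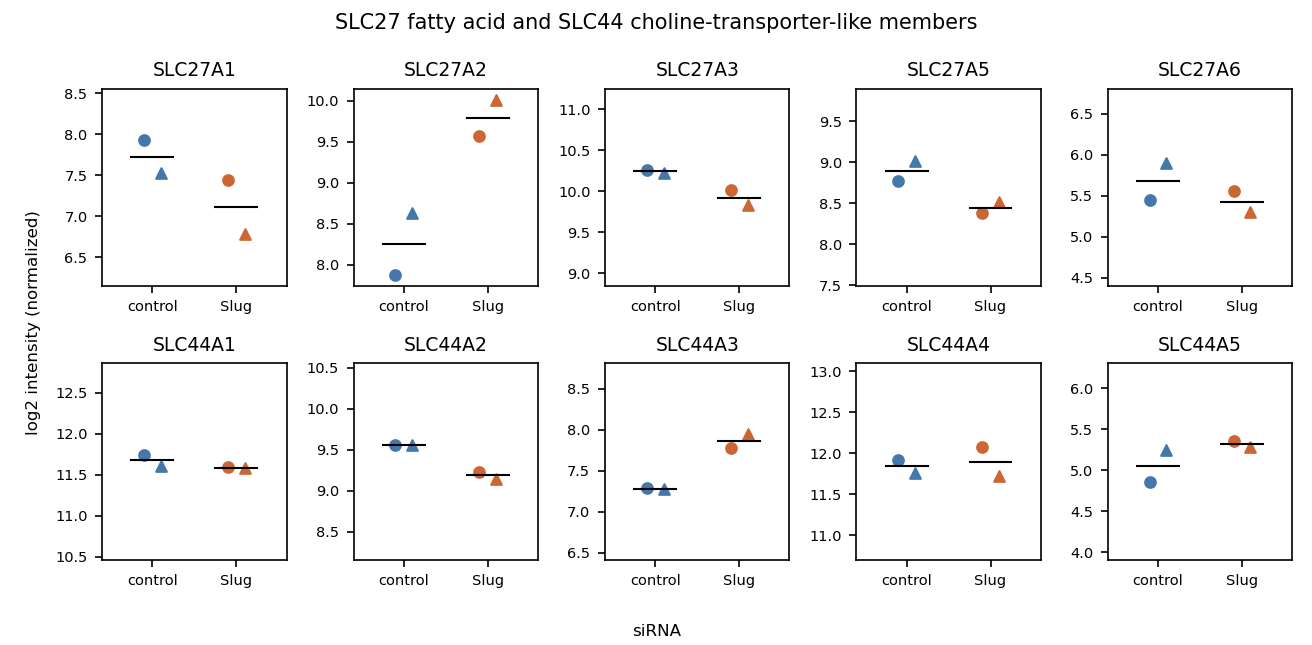
Normalized log2 intensity (y axis) of the SLC27 and SLC44 members by siRNA (x axis), with circles for replicate 1, triangles for replicate 2 and a line at the group mean, and a separate range in each panel. SLC27A2 has the largest difference, at 1.54, and the other 4 SLC27 genes have lower means with Slug siRNA.

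Mitochondrial carriers of the SLC25 family, which share a fold of repeated helix pairs, made up the largest class. Of 32 members, 21 were above 0, and the median was 0.08. Groups did not overlap in 8 members that were higher and 4 that were lower, 37.5% of the class against 45.1% of all genes. None passed the adjusted threshold. Beside SLC25A42, the highest values were those of SLC25A20 and SLC25A15. SLC25A20, which carries acylcarnitines into the matrix for fatty acid oxidation, read 7.04 and 7.24 with control and 7.78 and 7.62 with Slug siRNA, a log2 difference of 0.56 (SE 0.17, adjusted p = 0.254). Its second probe had a log2 difference of 0.45. SLC25A15, the ornithine carrier of the urea cycle, stood at 0.39 (adjusted p = 0.391), and its second probe at 0.38.

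On the other side, SLC25A43, whose substrate is not settled, read 10.09 and 9.94 with control and 9.45 and 9.21 with Slug siRNA. Its 2 probes had log2 differences of -0.69 and -0.75 (adjusted p = 0.185 for the brighter), and the groups lay apart. SLC25A12, an aspartate and glutamate carrier of the malate-aspartate shuttle, stood at -0.27 (adjusted p = 0.579) and SLC25A36, a pyrimidine nucleotide carrier, at -0.22 (adjusted p = 0.659). The ADP/ATP exchangers SLC25A4 and SLC25A5 stood at 0.08 and 0.07, and the citrate carrier SLC25A1 at -0.12 (adjusted p of 0.836 to 0.913).

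Sugar carriers had a median of -0.01 over 13 members, 5 of them above 0. SLC50A1, a Golgi sugar transporter, read 10.15 and 10.08 with control and 9.34 and 9.40 with Slug siRNA, a log2 difference of -0.74 (SE 0.16, adjusted p = 0.126), and its second probe stood at -0.60. The arrays of each group were close, and the groups lay apart. SLC2A6, a lysosomal glucose transporter relative, stood at -0.61 (adjusted p = 0.215). SLC2A12, a glucose transporter, read 5.92 and 4.94 with control and 6.83 and 6.33 with Slug siRNA, a log2 difference of 1.15 (SE 0.33, adjusted p = 0.233). Its control arrays differed by about as much as the groups did, and without control siRNA replicate 2 the value was 0.66. The sugar phosphate carriers SLC37A1 and SLC37A3 stood at 0.24 and -0.24 (adjusted p = 0.606 and 0.608).

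The smaller classes held a few larger differences. The creatine carrier SLC6A8 read 7.90 and 7.43 with control and 6.87 and 6.58 with Slug siRNA, a log2 difference of -0.94 (SE 0.21, adjusted p = 0.149). SLC35A4, a Golgi member of the nucleotide sugar carriers, stood at -0.80 (adjusted p = 0.129) and SLC16A5, a monocarboxylate carrier, at -0.63 (adjusted p = 0.264). On both arrays these 3 genes read below control. The lysosomal carrier SLC46A3 stood at 0.75 (adjusted p = 0.164), the lysosomal nucleoside carrier SLC29A3 at 0.61 (adjusted p = 0.360), SLC22A4, the ergothioneine carrier, at 0.52 (adjusted p = 0.267) and SLC15A4, a histidine and peptide carrier of endolysosomes, at 0.43 (adjusted p = 0.436). Less characterised carriers stood at -0.81 (SLC68A1), -0.59 (SLC33A2), 0.42 (SLC66A3) and 0.30 (SLC67A1), with adjusted p from 0.190 to 0.582.

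The other vitamin carriers had smaller differences than SLC49A4, and none passed the adjusted threshold. The riboflavin carrier SLC52A3 stood at 0.32, the folate carrier SLC46A1 at 0.27, SLC5A6, which carries biotin and pantothenate, at 0.25 and the ascorbate carrier SLC23A2 at -0.27 (adjusted p of 0.499 to 0.620). In the remaining classes SLC16A7, a monocarboxylate carrier, stood at -0.24, the UDP-galactose carrier SLC35A2 at -0.24, the CMP-sialic acid carrier SLC35A1 at 0.20 and the nucleoside carrier SLC29A2 at -0.18 (adjusted p of 0.595 to 0.719). In these 8 genes the groups did not overlap by the brightest probe, and none passed an unadjusted limma p of 0.05. The other SLC35A2 probes had log2 differences of 0.19 and 0.25, and the second SLC16A7 probe stood at 0.04.

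Same-numbered arrays gave differences of 1 sign in 113 of 153 members. Across members the difference of replicate 1 and that of replicate 2 correlated at r = 0.67, a description over genes of the same arrays. SLC4A5 was the member farthest from this relation.

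**Figure D5:**
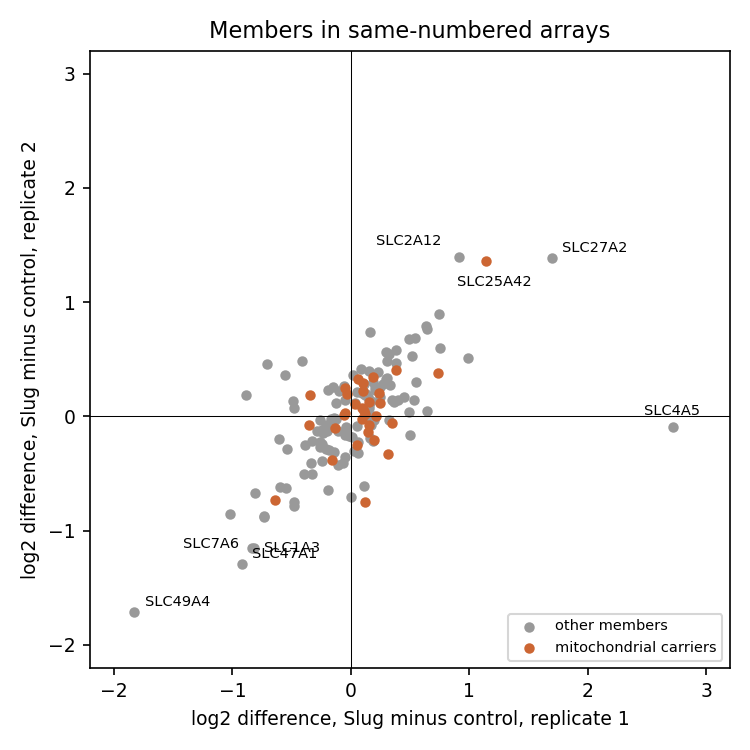
Log2 difference of Slug siRNA minus control siRNA in replicate 1 (x axis) and in replicate 2 (y axis) for each of the 153 members, mitochondrial carriers in orange. Of these, 113 have the same sign on both axes, and SLC4A5 is far from 0 on the x axis only.

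Genes that work with carriers were read from a list of pumps, channels, chaperones and regulators, of which 23 had a named probe and 20 were above background. None passed the adjusted threshold, 12 were above 0 and 8 below, and the median log2 difference was 0.16. NEDD4L, a ubiquitin ligase that removes channels and carriers from the membrane, read 7.73 and 7.83 with control and 7.13 and 7.10 with Slug siRNA, a log2 difference of -0.66 (SE 0.16, adjusted p = 0.163). SGK1, the kinase that inhibits NEDD4L, stood at 0.52 (adjusted p = 0.387). MPC1, a subunit of the mitochondrial pyruvate carrier, stood at 0.49 (adjusted p = 0.273) and LRRC8A, the core of the volume-regulated anion channel, at -0.30 (adjusted p = 0.497). At an unadjusted limma p under 0.05, 3 of the 20 were higher and 1 lower, where all genes gave 6.18% and 6.88%.

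The E-box letters CAGGTG and CACCTG, each the reverse complement of the other, were counted in RefSeq promoter windows of 300 bases, 250 before the gene start and 50 after. A window was found for 132 members. Of their 195 windows 24.6% held either form, against 20.6% of all 35116 windows. Of the windows, 30.2% of 53 held it where both Slug siRNA arrays lay above control, 18.2% of 44 where both lay below and 24.5% of 98 where the groups overlapped. Windows of 1 gene can overlap and hold the same letters, as in SLC38A9. By gene, 32.6% of the members held it in at least 1 window, against 24.1% of all 27305 genes. This was 40.0% of 35 genes that lay above control, 22.6% of 31 that lay below and 33.3% of 66 that overlapped. At an unadjusted limma p under 0.05 it was 28.6% of 14 higher and 7.69% of 13 lower members. A match to these letters is not a binding site, and these shares were not tested.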

How the data were processed

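Expression was measured on 4 bead arrays, 2 per siRNA. The authors deposited mean bead intensity per probe, not normalized per the file headers, with detection p-values, bead standard errors and bead counts. They also deposited normalized intensities of unstated background correction, used as an alternative only. A further 8 columns of per-sample values were not used. Median bead number was 20 to 21 per probe, and the median bead error of the members was 3.28% to 3.93% of signal.

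Background was corrected by normal-exponential convolution from detection p-values, and signals were given an offset of 16, quantile normalized and put on a log2 scale (R 4.3.3, limma 3.58.1). The fit used 19446 of 47323 probes, with detection p under 0.05 on at least 2 arrays, group as the only term (2 residual and 5.11 prior degrees of freedom) and Benjamini-Hochberg adjustment over all kept probes at 0.05. The offset shrinks the differences of dim probes. An exact permutation test of 2 against 2 arrays cannot give a p below 0.333. By platform annotation 30113 probes had 1 symbol, 17202 had none and 8 had several, and 30074 of the first matched a RefSeq gene of GRCh38.p14. Each gene was read by its brightest probe.

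In 20 simulated sets of 19446 probes for this comparison, the fit recovered 0.1%, 17.4%, 79.2% and 95.1% of changes of 0.5, 1, 1.5 and 2 on the log2 scale, so smaller differences would mostly be missed. Each set held 50 changed probes per size and gave 101.4 calls on average, where 13 genes passed in the data. The adjusted threshold depends on how many probes change, so these shares hold for the simulated setting and may be too high here. Members, classes and lists were chosen with earlier results of these data known, and 5 newly numbered families were put in the class "other" after the files were read. The rule for named genes took members past the threshold, up to 3 members in each direction per class with groups that do not overlap, and 22 fixed names, of which 5 were not members. Alternatives changed the background correction, offset, scaling, source, filter, probe choice, replicate term and arrays. Protein sequences were not used here. Replicate 2 minus replicate 1 correlated at 0.36 between groups across probes. Figures used matplotlib 3.10.9.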

Additional observations from a re-analysis of the deposited data

How the results depend on the processing

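Of 780 single-gene values under the alternatives, 754 kept their direction and side of the threshold. Most of the 65 named members were chosen because their groups did not overlap, and only SLC49A4 passed with the main settings. Alternatives of only the filter or the replicate term could not change a direction. Much of this count therefore follows from the choice of genes and settings. The number of members past the adjusted threshold was 1 with the main settings. It was 2 without background correction, 7 with an offset of 50, 0 with the authors' normalized values and 0 with no filter on dim probes. Over all genes the count of 13 became 158, 217, 3 and 0 under these alternatives, in that order. It became 34 with median scaling and 52 with the stricter detection filter. With the replicate block 12 members passed, 4 higher and 8 lower, and 356 genes in all, although the labels tie no number to a shared day. With an array left out, members higher at an unadjusted p under 0.05 numbered 9 to 17, the 9 without Slug siRNA replicate 2. The members' median, 0.05, was 0.0841 with median scaling and 0.0213 to 0.0299 with an array left out. Median scaling also gave 0.24 for vitamins, and turned lipids (0.0253), sugars (0.0092) and other carriers (0.0264) above 0. The median over all genes was 0.0439 with median scaling and 0.0103 with the main settings. The medians of lipids, sugars and other carriers lay below that of all genes in both. The vitamin median was 0.0884 without background correction and 0.14 with an offset of 50. With the mean over probes nucleotide sugars turned to 0.0657, SLC35A2 to 0.0657 and SLC48A1 to 0.16. With an array left out the class medians ranged from -0.13 to 0.0183 for amino acids, -0.22 to -0.0919 for carboxylates, -0.10 to -0.0242 for lipids, -0.12 to -0.0206 for metals, 0.0678 to 0.18 for inorganic ions, -0.10 to 0.68 for nucleosides, -0.16 to 0.0066 for nucleotide sugars, 0.10 to 0.43 for organic ions, -0.10 to 0.0428 for other carriers, 0.22 to 0.65 for the peptide carrier, -0.15 to 0.0256 for sugars and 0.11 to 0.27 for vitamins. Reversals there were amino acids (0.0183), SLC20A1 (0.0252, the lowest without an array being -0.21) and SLC6A14 (-0.0041, the highest being 0.47) without control siRNA replicate 2, sugars (0.0256) and nucleosides (-0.0981) without control siRNA replicate 1, nucleosides (-0.0089) and other carriers (0.0428) without Slug siRNA replicate 2, and nucleotide sugars (0.0066) without Slug siRNA replicate 1. The cause was not tested.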

Other observations

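More than 1 probe above background read 43 of the 153 members, and in 28 of these all probes had log2 differences of the same sign. Among probes above background in both groups, those of 1 gene differed by over 0.5 in 3 genes, which were named after their values were seen. They were SLC48A1 (-0.27 and 0.58), SLC12A2 (0.30 and -0.24) and SLC25A24, a calcium-regulated carrier of ATP and phosphate (-0.02 and 0.51). The first value of each is that of the brighter probe. Of the 82 members whose groups did not overlap, 79 kept their sign under all 12 alternatives, and of all 153 members 97 did. Groups that do not overlap can hardly change sign when an array is left out. The alternatives that changed only the filter or the replicate term left every log2 difference as it was. The gap between these counts thus follows largely from the choice of members and is no test of stability. Leaving out 1 array moved 4 of the 32 members at an unadjusted p under 0.05 by over 1.5 times (SLC16A5, SLC27A1, SLC29A3 and SLC2A12), and 106 of the other 121. The 32 were picked on these same arrays for differences that are large beside their spread. Small differences move by a large ratio with little change, so this contrast too follows largely from the choice.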
